A study of Mus musculus with 451 samples.

Results

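The nuclear genes for the subunits of mitochondrial complexes I, III, IV and V were followed in single tail tendon cells of WT and Mkx-/- mice. Rows of the deposited count table were taken when their symbol began with Nduf and a subunit letter and number, with Uqcr, with Cox and a number from 4 to 8, or with Atp5, when it did not carry the pseudogene ending -ps, and when the row held at least 100 reads over all cells. Of 48795 rows, 80 carried such a symbol and 70 of these reached the minimum, out of 10963 rows in all that did. They comprised 34 genes of complex I, 8 of complex III, 12 of complex IV and 14 of complex V, and 2 further genes, Atp5s and Atp5sl, that share the symbol but are not subunits of the complex. The genes just inside the minimum were Ndufb6 with 51 reads in WT and 52 in Mkx-/- cells, Cox6c with 65 and 40 and Cox8b with 67 and 58, and those just outside it were Ndufb2 and Ndufa4l2 with 54 each and Cox6b2 with 47.

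The cells came from C57BL/6 mice aged 4 weeks, from tail tendons digested with collagenase, and were captured on Fluidigm C1 high-throughput chips, with 1 library per cell. There were 227 WT cells and 224 cells labelled Mkx-/-, and Mkx (Mohawk) encodes a tendon transcription factor whose loss leads to ectopic bone in tendons. The knockout is carried in the whole animal rather than in a chosen cell type. Which animal or chip a cell came from is not labelled, so each genotype counts as 1 sample, no p-value is given, and genotype, animal and chip cannot be told apart.

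The respiratory chain lies in the inner mitochondrial membrane. Complex I takes electrons from NADH, complex III passes them from ubiquinol to cytochrome c, complex IV hands them to oxygen, and complex V, the ATP synthase, makes ATP from the proton gradient that the others build. Its subunits are encoded mostly in the nucleus, and a few of the catalytic ones in mitochondrial DNA. Adult tendon is sparsely supplied with blood, and its cells are known for a low rate of oxygen use.

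Depth and composition of the cells set the limits of what follows. The WT cells held 13630536 reads in all and 13076 to 335813 each, and the cells labelled Mkx-/- held 14145394 in all and 14226 to 294791 each. Counts are reads rather than molecules, so each interval below is a 95% exact interval on counting error alone and leaves out differences between cells and animals. Mkx itself was read in 52 WT cells at 33.8 CPM (its reads per 1000000 reads of those cells together) and in 29 of the cells labelled Mkx-/- at 15.5 CPM; which exons those reads covered cannot be seen in a count per gene. Clustering without the subunit rows gave a TPC-like cluster (Thy1, Cd44, Tppp3, Ly6a and Fstl1, markers of tendon progenitors, at 24318 CPM together in WT, against 4505 in the TC-like one), a TC-like cluster (Tnmd, Fmod, Sparc, Col1a1, Col1a2 and Col11a2, markers of tenocytes, at 317850 CPM, against 27329), and a cluster 3, which was given no cell type name and had Mmp10 and Mmp3 among its leading genes. Each cluster took its label from the marker list with the highest mean in it, so these sums are not separate support for the labels. For cluster 3 that list was Itm2a and Lgals3, taken as tenoblast markers. They had 1599 CPM together in WT cells of cluster 3, against 1049 in TPC-like and 748 in TC-like ones. The genes leading the TC-like cluster also included Ucma, Col2a1 and Cilp2, which are known from cartilage. The clusters held 89, 64 and 74 WT cells and 88, 56 and 80 Mkx-/- cells, in the order TPC-like, cluster 3 and TC-like. In 10 WT cells and 7 Mkx-/- cells, 3 or more markers of another cell type were detected, mostly of macrophages (6 and 3 cells) and Schwann cells (2 and 5 cells). The erythroid, keratinocyte and adipocyte lists could not meet this rule. In each of them 2 markers, out of 4, 3 and 4, had 0 reads in every cell. A WT cell of cluster 3 stood apart, with 45.9% of its 55280 reads in the predicted gene Gm10800 and 14.4% in Gm21738.

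Many of these genes have processed copies elsewhere in the genome, made from spliced messenger RNA that was copied back into DNA. For 27 of the 80 matching symbols, rows of the table lay at such unspliced copies or were named -ps after the gene, 46 copy rows in all. For Atp5k and Uqcrh no row lay at a copy found by sequence, so only rows named -ps were counted. For these 27 genes, the copy rows took 60.6% of the reads of genes and copies together in WT and 59.3% in Mkx-/-. Out of the reads of all 80 matching rows and the copies, they took 32.5% and 31.5%. The sequences below show how alike gene and copy are in a short window. A read that crosses an exon junction matches the copy in 1 piece but matches the gene itself only when it is split over an intron, and the aligner that the authors named, bowtie2, does not split reads. Below are 60 bases across a coding exon junction, 30 from each exon, of 4 genes with their leading copy row (NCBIM37). Ndufs5, the gene with the largest ratio between genotypes, was chosen by name. The others had the highest shares of reads in copy rows among genes whose leading copy row lay at a copy found by sequence. The copy of each held more reads than the gene. Where a gene had more than 1 coding exon junction, the window with the fewest differences was taken. Over the aligned coding sequence, the identity of gene and copy was 99.4% for Ndufs5, 97% for Cox6c, 93% for Cox5a and 92.1% for Ndufb2. Capitals mark bases of the copy that differ from the gene.

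Ndufs5: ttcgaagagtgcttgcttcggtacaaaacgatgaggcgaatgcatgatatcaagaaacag
BC002163: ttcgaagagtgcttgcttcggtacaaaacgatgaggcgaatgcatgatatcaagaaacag
Cox6c: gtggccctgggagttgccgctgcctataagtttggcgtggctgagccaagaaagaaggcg
Gm6265: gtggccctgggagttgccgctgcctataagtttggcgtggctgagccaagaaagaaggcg
Cox5a: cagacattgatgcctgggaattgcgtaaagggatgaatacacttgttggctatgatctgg
Gm11633: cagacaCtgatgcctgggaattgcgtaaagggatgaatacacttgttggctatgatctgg
Ndufb2: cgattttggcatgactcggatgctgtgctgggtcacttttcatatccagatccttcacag
Gm13186: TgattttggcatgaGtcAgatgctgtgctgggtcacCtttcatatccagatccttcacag

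The Ndufs5 window joins the coding parts of exons at chr4:123393107-123393136 and chr4:123390140-123390169 on the minus strand, which are 2937 bp of intron apart, and it matched BC002163 at chr16:42955930-42955989 on the plus strand with 0 differences. The Cox6c window (chr15:35866910-35866939 and chr15:35865139-35865168, minus strand) also had 0 differences to Gm6265 at chr12:57474664-57474723 on the minus strand. Cox5a (chr9:57376850-57376879 and chr9:57378048-57378077, plus strand) differed at 1 base from Gm11633 at chr11:97830284-97830343 on the plus strand. Ndufb2 (chr6:39546565-39546594 and chr6:39548265-39548294, plus strand) differed at 4 bases from Gm13186 at chr2:3448770-3448829 on the plus strand.

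The counts of the same genes went with their copies. Cox5a, a subunit of complex IV present in every tissue, had 23 reads in its own row and 6198 in the row of its copy. Ndufb2, an accessory subunit of complex I, had 54 reads against 5894. Cox6c, a small subunit of complex IV, had 98.8% of the reads of gene and copy in the row of its copy, which held 8638. The count in the own row of such a gene cannot be read as the level of its messenger. Copies held more reads than the gene in 17 of the 27 cases. Among the 24 whose leading copy row held at least 1000 reads, the share in copy rows ran from 14.1% for Atp5f1 to 99.6% for Cox5a and Atp5k. For Atp5k that share rests on a row named -ps alone. How much of this came from the aligner, from transcription of the copies or from reads matching several places was not tested.

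**Figure D1:**
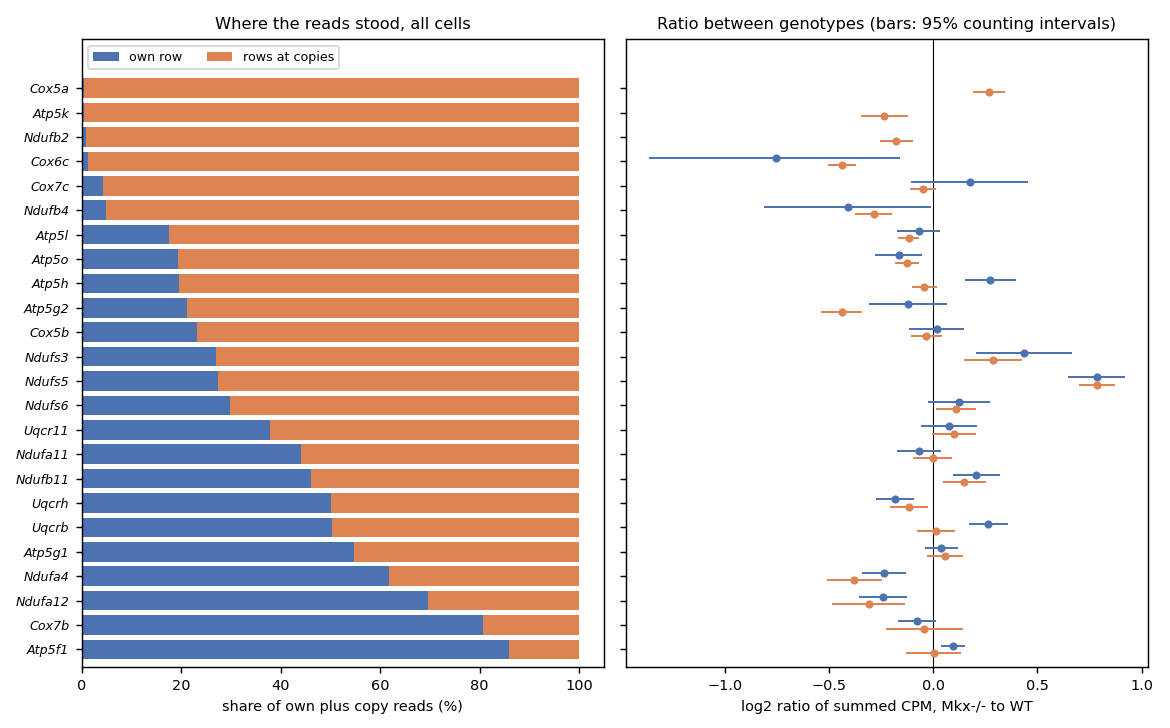
Left, share of reads (percent) in the gene's own row (blue) and in its copy rows, rows named -ps among them (orange), for the 24 genes whose leading copy row held at least 1000 reads. The copy share runs from 14.1% for Atp5f1 to 99.6% for Cox5a and for Atp5k, whose copy row is one named -ps. Right, log2 ratio of Mkx-/- to WT of own and copy rows with 95% exact counting intervals, where the intervals of own and copy rows lie apart for Atp5h, Uqcrb and Atp5g2; own rows with fewer than 100 reads have no ratio.

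The subunits encoded in mitochondrial DNA could not be read from their own rows. All 37 mitochondrial rows of the table held 0 reads in every cell, among them the 13 protein-coding genes. Of these 13, 9 had a nuclear copy in NCBIM37 and 6 had a table row at such a copy. The predicted gene Gm10925 lies on a copy at chr1:24620810-24621490 that is 100% identical to mt-Atp6, the mitochondrial gene of ATP synthase subunit a. It held 42620 reads in WT and 36331 in Mkx-/-, or 3127 and 2568 CPM, with a log2 ratio of Mkx-/- to WT of -0.28 (-0.30 to -0.26), and it had a read in 100% of cells. That is more than any nuclear subunit gene held in its own row. Whether those reads came from mitochondrial RNA was not tested.

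The own rows of the subunit genes took close to 1% of the reads of a cell in both genotypes. Copy rows, with 64686 reads in WT and 64726 in Mkx-/-, were left out. The share of the own rows was 0.985% of all WT reads and 0.993% of all Mkx-/- reads. Over single WT cells it ran from 0.0416% through a median of 1.02% to 1.90%, and over Mkx-/- cells from 0.385% through 1.01% to 2.03%. The lowest WT value belonged to the cell rich in Gm10800, and the next lowest was 0.345%, so the cells of the genotypes overlapped almost entirely. A WT cell had reads of 11 to 67 of the 70 genes (median 41) and a Mkx-/- cell of 20 to 64 (median 42).

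**Figure D2:**
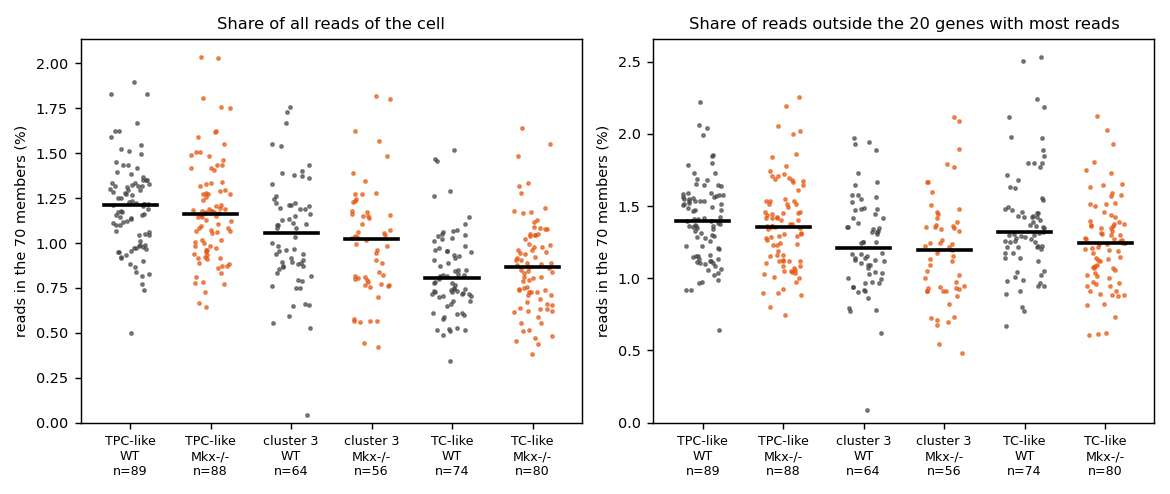
Share of a cell's reads (percent) in the 70 subunit rows, by cluster and genotype, 1 point per cell with the median as a bar, out of all reads (left) and out of reads outside the 20 genes with the most reads (right). On the left the medians are 1.21% in WT and 1.16% in Mkx-/- for TPC-like cells, 1.06% and 1.02% for cluster 3, and 0.805% and 0.864% for TC-like ones; on the right those of TC-like cells are 1.32% and 1.24%.

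Levels within a complex, taken per kilobase of annotated exon, were far from even. Compared per kilobase of exon in WT, the highest level in complex I was that of Ndufa3 (355 CPM per kb) and the lowest that of Ndufb6 (5.68), around a median of 61.1. Medians were 122.4 in complex III, 195.4 in complex IV and 66.6 in complex V. Cox4i1, the common form of the regulatory subunit 4 of complex IV, had the highest level of all, 1117 CPM per kb, and Uqcr10, a small subunit of complex III, followed within its complex at 824. The lowest genes per kb, Ndufb6, Uqcrc2 and Cox6c, had 51, 78 and 65 reads in WT. Only reads of a gene's own row enter this scale, so no order between complexes was read from it. The 70 genes lay on 19 chromosomes, 3 of them (Ndufb11, Ndufa1 and Cox7b) on X, with exons of 362 to 4908 bp in all (median 1282.5).

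Paralogs known to be restricted to other tissues were low or unread. The lung-associated Cox4i2 and the testis-associated Cox7b2 and Cox8c had 0 reads in all cells. Cox6a2, the heart and skeletal muscle form, had 34 reads, all in 5 cells labelled Mkx-/-, and Cox7a1, the other muscle form, had 28. Cox8b, also a muscle form, had 67 reads in 6 WT cells and 58 reads in 6 Mkx-/- cells. Their broadly expressed partners were read in most cells. Cox4i1 had 758 CPM in WT and 756 in Mkx-/-, Cox6a1 328 and 327, and Cox8a 281 and 297. Cox7a2 had 202.05 and 192.5 CPM, Cox7a2l, which takes part in joining complexes III and IV, had 98.7 and 95.6, and Cox7b had 155.9 and 147.8. Cox6b1 had 388 and 412 CPM, whereas its testis form Cox6b2 had 47 reads in all. Ndufa4, now placed in complex IV, had 129.1 and 109.7 CPM, and its hypoxia-associated relative Ndufa4l2 had 54 reads in all. The 3 genes for the c ring of the ATP synthase encode the same mature protein, and all were read, Atp5g1 at 210 and 215.8 CPM, Atp5g2 at 37.2 and 34.2, and Atp5g3 at 244 and 276.

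Between the genotypes, most subunit genes differed little. Over all cells the summed level of the 70 genes had a log2 ratio of Mkx-/- to WT of 0.01 (0.00 to 0.02), and the median gene -0.01, against a median of 0.05 over all genes tested. Of the 70, 31 lay above 0 and 39 below, and of all 10963 genes tested 6044 lay above and 4919 below. Only Ndufs5 was at least 1.5-fold higher, where 16% of all tested genes were, and only Cox6c at least 1.5-fold lower, where 13.1% of all tested genes were. Relative to the median of all genes, or outside the 20 genes with the most reads, 3 genes were lower, with Atp5s and Atp5sl added. The share of all tested genes on those 2 scales is not given here, so the count of 3 has no background. The counting interval lay above 0 for 18 genes (37.6% of all tested genes) and below 0 for 20 (28.7%). Genes with many reads have smaller ratios in general: among the 58 subunit genes with at least 1000 reads, 1 was 1.5-fold higher and 0 lower, against 7.24% and 2.97% of the 4074 such genes in the table, and their median absolute log2 ratio was 0.12 against 0.21. Leaving out the cells with markers of other cell types put the summed ratio at -0.03.

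**Figure D3:**
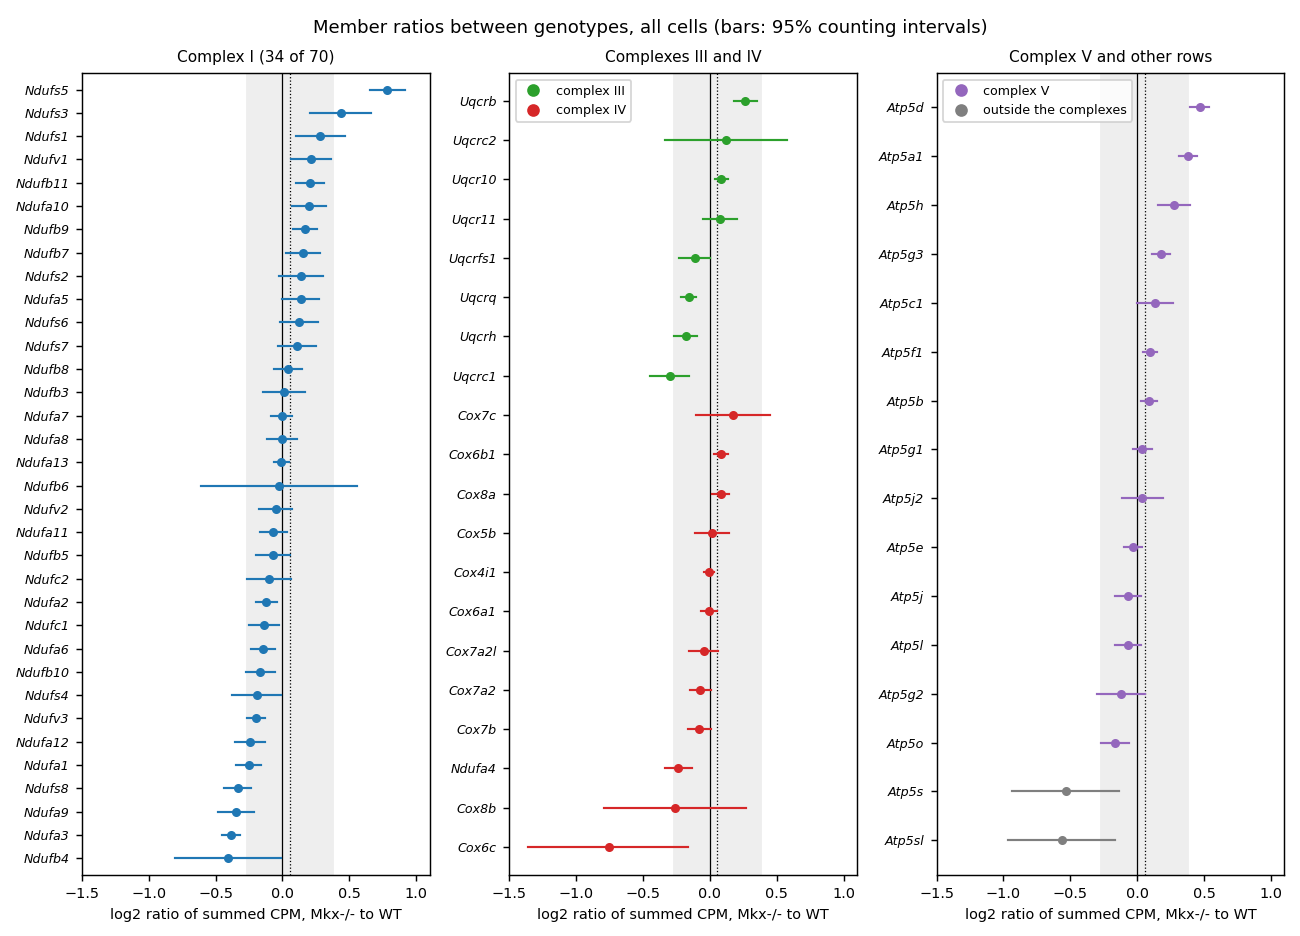
Log2 ratio of Mkx-/- to WT over all cells for each of the 70 genes, by complex, with 95% exact intervals on counting error as bars. The dotted line is the median of all genes tested (0.05) and the grey band their quartiles (-0.27 to 0.38). Ndufs5 (0.78) lies furthest above 0 and Cox6c (-0.75) furthest below, and most of the 70 lie inside the band. Only own rows are drawn, and with its copy row added Cox6c was at -0.44.

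The complexes leaned in different directions by small amounts. The summed level of complex I was lower in Mkx-/- cells by a log2 ratio of -0.05 (-0.07 to -0.04), that of complex III was at -0.01 (-0.04 to 0.02) and that of complex IV at -0.00 (-0.02 to 0.02). Complex V was higher, at 0.13 (0.11 to 0.15). Within complex V, the catalytic part F1 (Atp5a1, Atp5b, Atp5c1, Atp5d and Atp5e) stood at 0.21 (0.18 to 0.24), the peripheral stalk at 0.05 and the membrane part at 0.06. Relative to the median of all genes, complex I was at -0.11 and complex V at 0.07. Without the 20 genes with the most reads in the denominator they were at -0.13 and 0.05. The sum of complex V depended on which rows were counted. The copy rows of its genes had a ratio of -0.11 (-0.14 to -0.09) on their own, and gene and copy rows together gave 0.03 (0.01 to 0.04). None of the F1 genes had a copy, so copy rows do not enter the F1 ratio. For complex I the same sum gave -0.02 (-0.03 to -0.00).

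**Figure D4:**
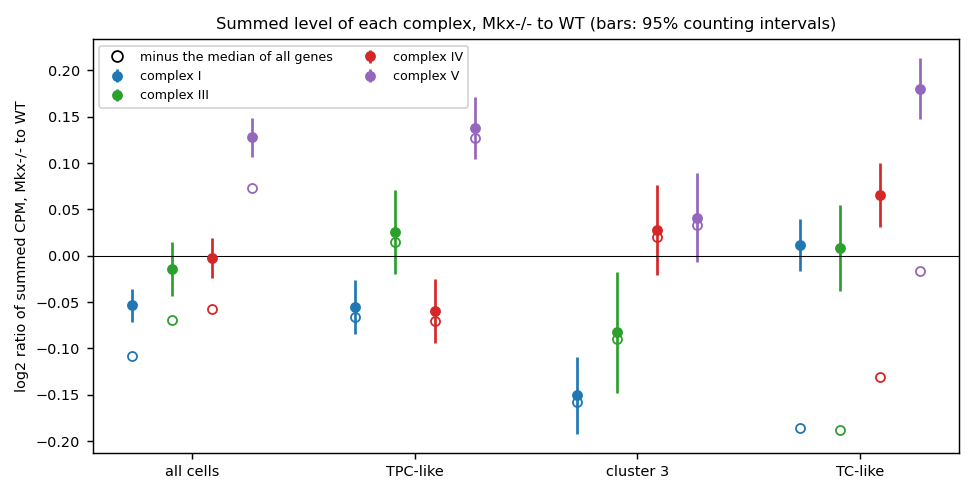
Log2 ratio of Mkx-/- to WT for the summed reads of each complex, over all cells and in each cluster, with 95% exact counting intervals; open circles are the same values relative to the median of all genes. In gene rows without copy rows, as drawn, complex V is the highest of the 4 in each group, at 0.13 over all cells, and its open circle lies just below 0 in TC-like cells.

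In complex I, Ndufs5 differed most. It is an accessory subunit on the intermembrane side of the complex. WT cells had 734 reads of it, in 55.9% of cells, and Mkx-/- cells 1312 reads, in 66.5%, or 53.8 and 92.8 CPM, a log2 ratio of 0.78 (0.65 to 0.92). Single WT cells ran from 0 through a median of 20.7 to 646 CPM, and Mkx-/- cells from 0 through 53.8 to 578. The ranges overlapped throughout, and the difference lay in the middle of the distribution and in the number of cells with a read. It held in each cluster, with 68.98 CPM in WT and 111.02 in Mkx-/- for TPC-like cells, 40.5 and 79.5 for cluster 3, and 48.5 and 85.8 for TC-like cells. Its copy row BC002163, whose window above is identical, had 5435 reads and a ratio of 0.79 (0.70 to 0.87), and reads of the gene and of the copy may come from the same messenger, so the copy row is not separate evidence.

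Other genes of complex I were spread on either side of 0. Ndufs3, a core subunit of the arm that binds ubiquinone, had 20.4 CPM in WT and 27.6 in Mkx-/- (0.43, 0.21 to 0.66). Ndufa3, an accessory subunit, had 305 and 234 CPM (-0.38, -0.45 to -0.32), with single-cell medians of 245 and 158.8 CPM and cells from 0 to 2497 and 0 to 1564. The ratio was -0.58 in TPC-like cells, -0.05 in cluster 3 and -0.29 in TC-like cells. The X-linked Ndufa1, which is needed to build the membrane arm, had 145.1 and 121.9 CPM (-0.25, -0.35 to -0.16), and was lower in Mkx-/- cells of every cluster. Ndufb4 had 9.10 and 6.86 CPM (-0.41, -0.81 to -0.01), while its copy row Gm3244 had 4410 reads and a ratio of -0.29.

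In complex III, Uqcrb, which binds ubiquinone, had the highest ratio, with 142.03 CPM in WT and 170.7 in Mkx-/- (0.27, 0.18 to 0.35). It was not even across cells, at -0.10 for TPC-like cells, 0.48 for cluster 3 and 0.58 for TC-like cells, and the single-cell medians were 98.4 and 97.3 CPM. Its copy rows were at 0.01, apart from the gene's interval. Uqcrc1, a core protein, was lowest, with 59.6 and 48.4 CPM (-0.30, -0.45 to -0.15). Its partner Uqcrc2 had 5.72 and 6.22 CPM (0.12, -0.34 to 0.58), and the hinge protein Uqcrh had 170 and 150 (-0.18).

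In complex IV the abundant subunits barely differed. Cox4i1 was read in 98.2% of the cells of either genotype, with single-cell medians of 677 and 712 CPM and a ratio of -0.00. Cox6b1 had 388 and 412 CPM (0.09). Ndufa4 was lower, at -0.23 (-0.33 to -0.14) with copy rows at -0.38. Cox6c had 65 reads in 29 WT cells and 40 in 18 Mkx-/- cells (-0.75, -1.36 to -0.16), and 1 cell held 35% of the Mkx-/- reads. The copy row of Cox6c, Gm6265, with 8638 reads, had a ratio of -0.44, and gene and copy rows together also gave -0.44. Cox7c had 14.97 and 16.9 CPM (0.17, -0.10 to 0.45), with 95.8% of the reads of gene and copies in copy rows.

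In complex V, the delta and alpha subunits of the F1 part were higher in Mkx-/- cells. Atp5d, the delta subunit, had 203.6 CPM in WT and 281 in Mkx-/- (0.47, 0.40 to 0.54). Single WT cells ran from 0 through a median of 113.6 to 1733 CPM, and Mkx-/- cells from 0 through 170.1 to 3824. The alpha subunit Atp5a1 had 251 and 326 CPM (0.38, 0.32 to 0.44), with reads in 70.5% of WT and 84.8% of Mkx-/- cells and medians of 146.4 and 233 CPM. Both were higher in each cluster, Atp5d by 0.58, 0.26 and 0.53 and Atp5a1 by 0.57, 0.21 and 0.29, in the order of clusters given above. The cells of the genotypes overlapped for both. The beta subunit Atp5b, which carries the catalytic sites, had 321 and 340 CPM (0.09), and the epsilon subunit Atp5e had 262 and 256 (-0.03). In the peripheral stalk, Atp5o had 109.8 and 97.8 CPM (-0.17), and Atp5h was at 0.28 in its own row but at -0.04 in its copy rows. Atpif1, the inhibitor of the synthase, is not among the 70 and had 203.3 and 209.3 CPM (0.04, -0.03 to 0.12).

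The same comparison was made within each cluster. In TPC-like cells the summed ratio was 0.01, with 4 genes at least 1.5-fold higher (22.1% of all tested genes) and 1 lower (20.3%). In cluster 3 it was -0.05, with 4 higher (26.4%) and 10 lower (27.1%), and it turned to 0.02 when the cells were clustered with the subunit rows and to 0.04 with 10 dimensions. In TC-like cells it was 0.07, with 5 higher (30.6%) and 3 lower (18.2%), but the median of all genes there was 0.20. Relative to that median the subunit genes were at -0.13, with 3 higher and 8 lower, for which the share of all tested genes is not given here. By complex, the sums of complex I stood at -0.06, -0.15 and 0.01 and those of complex V at 0.14, 0.04 and 0.18, in the order TPC-like, cluster 3 and TC-like; relative to the median of all genes, complex V in TC-like cells was at -0.02. With copy rows added, complex I stood at -0.03, -0.07 and 0.03 and complex V at 0.05, -0.07 and 0.07, so that complex V turned negative in cluster 3 (-0.10 to -0.03). In TC-like cells the 20 genes with the most reads took 39.3% of WT reads and 30.5% of Mkx-/- reads. Without the WT cell rich in Gm10800, cluster 3 was at -0.08.

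Some genes had the same direction in every cluster. Of the 69 genes with a ratio in each, 10 were higher in Mkx-/- cells of all 3 clusters, where 17.7% of all tested genes were, and 10 lower, where 11.3% were. With the counting interval above 0 in all 3 there were Ndufs5, Atp5d and Atp5a1 (5.89% of all tested genes), and with it below 0 there was Ndufa1 (3.36%). In 10 genes the ratio lay on opposite sides of 0 in TPC-like and TC-like cells beyond both intervals, where 19% of all tested genes did. All these directions are against 0, whereas the median of all genes was 0.01 for the TPC-like cluster and 0.20 for the TC-like one. Directions relative to those medians were not tested.

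In CPM, most subunit genes were lower in TC-like than in TPC-like cells. From TPC-like to TC-like cells the summed level of the 70 genes had a log2 ratio of -0.52 (-0.53 to -0.50) in WT and -0.45 (-0.47 to -0.43) in Mkx-/-. In WT, 30 genes were at least 1.5-fold lower and 2 higher, against 53.3% and 14.4% of all tested genes, and in Mkx-/- 29 lower and 3 higher, against 44.7% and 15.4%. The lower share thus went with that of genes in general, whose median was -0.66 in WT and -0.46 in Mkx-/-. Relative to that median, 9 genes were higher and 6 lower in either genotype, for which the share of all tested genes is not given here. Outside the 20 genes with the most reads, the subunit sum differed by -0.02 in WT and -0.15 in Mkx-/-. Those 20 genes, mostly of the matrix, took 39.3% of the reads of WT TC-like cells and 14.3% of WT TPC-like cells. By complex the ratios in WT and Mkx-/- were -0.44 and -0.38 for I, -0.58 and -0.60 for III, -0.59 and -0.47 for IV, and -0.50 and -0.46 for V. From TPC-like cells to cluster 3 the sums were -0.19 in WT and -0.25 in Mkx-/-, with 3 genes higher and 11 lower in WT, against 22.4% and 29.6% of all tested genes, and 3 and 13 in Mkx-/-, against 22.5% and 31.2%.

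A few genes went against the direction of the rest in CPM. In both genotypes 57 genes were lower in TC-like cells (58.2% of all tested genes) and 6 were higher (13.7%), namely Ndufa1, Ndufb11, Ndufb5, Ndufa13, Atp5e and Cox8b. Ndufa1 had 115.2 CPM in TPC-like and 185.8 in TC-like WT cells (0.69), and 98.3 and 156.9 in Mkx-/- cells (0.67). It was read in 66 of 89 WT TPC-like cells and in 71 of 74 TC-like ones. Ndufb11, which lies on X as Ndufa1 does, was at 0.40 and 0.27, and Atp5e at 0.05 and 0.32. Cox8b had 0 reads in TPC-like cells and few cells elsewhere, so its ratio is left aside. At the other end, Cox6b1, which bridges the complex IV dimer, went from 544 to 246 CPM in WT (-1.14) and from 535 to 312 in Mkx-/- (-0.78), with single-cell medians of 536 and 219.3 CPM in WT. Atp5d was at -0.83 and -0.88. Ndufb6 (-2.05 and -1.15), Uqcrc2 (-1.40 and -1.10) and Cox6c (-1.42 and -2.70) were lower still, but on few reads, and with its copy row added Cox6c was at -0.54 and -0.87. In complex III, Uqcrh differed least, at -0.14 and -0.17.

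**Figure D5:**
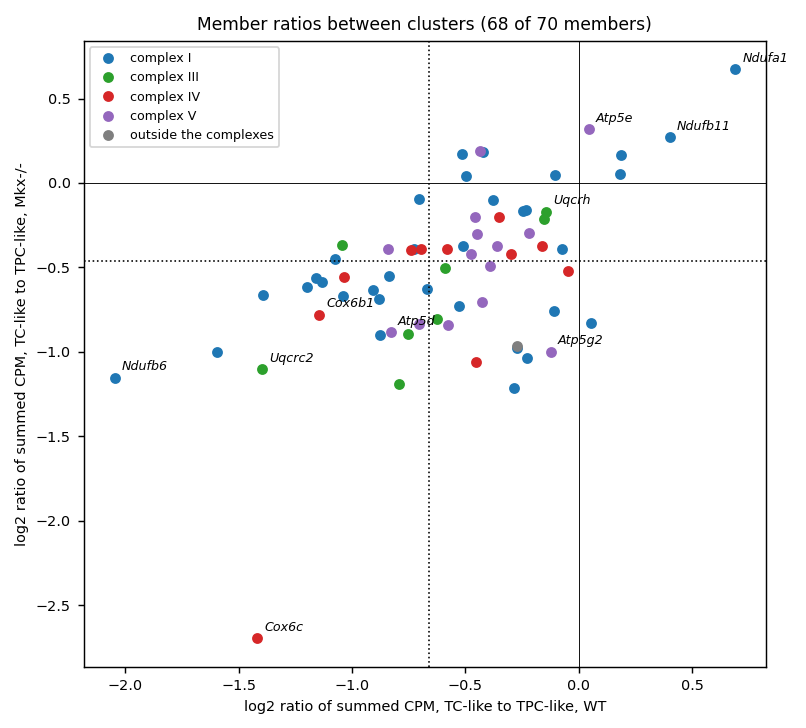
Log2 ratio of TC-like to TPC-like cells in WT (horizontal axis) against Mkx-/- (vertical axis), 1 point per gene, for 68 of the 70 genes; Atp5sl and Cox8b are not drawn. Dotted lines are the medians of all genes (-0.66 and -0.46). Most points lie below 0 on both axes, and Ndufa1 lies furthest above 0 on both.

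Genes around the chain were taken from lists by function, against the 16% of all tested genes that were at least 1.5-fold higher and the 13.1% that were lower. Mkx-/- to WT over all cells, the 4 genes of complex II, which passes electrons from succinate, had a median of 0.00 and none past 1.5-fold. The 5 electron carrier genes were at -0.19, among them cytochrome c (Cycs, 0.02). Of 10 assembly factors of complex I tested, 2 were 1.5-fold higher and 2 lower, with a median of 0.07, and Ndufaf4 was at 0.65. Of 19 assembly factors of complexes III and IV, 1 was higher and 2 lower (median 0.00), with Cox14 at -0.53. The 3 assembly factors of complex V had a median of -0.45, Tmem70 being at -0.55. The 9 regulators of mitochondrial biogenesis were at -0.08 with 2 lower, the 18 import genes at 0.06 with 1 higher and the 13 citrate cycle genes at 0.13 with 1 lower. Of 72 mitochondrial ribosome genes 4 were higher and 4 lower (median 0.09), and of 83 cytosolic ribosome genes 4 and 3 (median -0.03). From TPC-like to TC-like cells, the medians in WT and Mkx-/- were -0.98 and -0.77 for complex II, -0.63 and -0.83 for the citrate cycle, -0.55 and -0.47 for the mitochondrial ribosome and -0.28 and -0.10 for the cytosolic ribosome.

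Some promoters of the genes hold short sequences known as binding sites, while others, such as that of Atp5d, hold none of those searched. RefSeq windows on GRCm38.p6, from 250 bases before the start to 50 after it, were found for 60 of the 70 genes, 3 of them under an older symbol. The letters GCGCA and GCGC with 1 free base (N) between them, bound by NRF1, a regulator of respiratory genes, stood on either strand in 14 of the 60 (23.3%), against 5.19% of 27025 genes. Those 27025 genes were not limited to genes read in these cells, whereas the 60 were, and a comparison with other genes read here was not made. CCGGAA, the core of ETS sites such as that of GABP, stood in 23 (38.3%, against 16.7%), and AANATGGCG, a form of the YY1 site, in 11 (18.3%, against 2.76%). Below are the 120 bases before the start of 3 genes with the motifs in capitals: Ndufs5, the gene with the largest ratio between genotypes, Cox6a1 with an NRF1 and a reversed ETS match, and Atp5j with a YY1 and an ETS match.

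Ndufs5: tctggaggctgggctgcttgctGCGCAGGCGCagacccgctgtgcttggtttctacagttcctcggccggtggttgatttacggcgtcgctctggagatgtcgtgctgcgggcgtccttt
Cox6a1: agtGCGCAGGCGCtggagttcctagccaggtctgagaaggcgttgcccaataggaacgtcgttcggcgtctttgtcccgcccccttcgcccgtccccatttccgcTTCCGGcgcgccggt
Atp5j: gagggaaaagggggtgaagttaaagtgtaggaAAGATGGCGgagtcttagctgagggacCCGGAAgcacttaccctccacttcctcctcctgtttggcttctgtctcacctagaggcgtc

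On GRCm38.p6 these lie on the minus strand at chr4:123718187-123718306 for Ndufs5, chr5:115348959-115349078 for Cox6a1 and chr16:84834977-84835096 for Atp5j. Between genotypes the median log2 ratio was -0.01 over the 14 genes with an NRF1 match and -0.04 over the other 46, -0.03 with and -0.01 without an ETS match, and -0.00 with and -0.03 without a YY1 match. From TPC-like to TC-like cells in WT the same medians were -0.46 and -0.48 for NRF1, -0.35 and -0.62 for ETS, and -0.67 and -0.45 for YY1, and in Mkx-/- they were -0.38 and -0.51, -0.42 and -0.45, and -0.39 and -0.52. A match is a run of letters and not a measured site, and no binding was measured in these cells.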

How the data were processed

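Single-cell libraries were prepared by the authors with Nextera XT and sequenced as paired reads. Per the methods, reads were filtered with AfterQC, trimmed with NGSQCToolkit, aligned with bowtie2 and counted with featureCounts. The labels name mm10 and the methods name mm9 as the genome; the annotation, the strand setting and the handling of reads with several matches are not given in the sources used here. The deposited values were whole counts of reads per gene and cell, and 0 columns were left out. All 451 cells were kept, with at least 1801 genes detected in each; no doublet caller was run, and cells with 3 or more markers of another type were left out in an alternative.

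Counts were summed over cells and divided by the total (CPM). Log2 ratios were taken with 95% exact conditional binomial intervals, and shares with exact binomial ones. With 1 sample per genotype no test across samples was possible. Genes with at least 100 reads were tested for a 1.5-fold difference. Clusters came from Seurat 5.3.0 in R 4.3.3 (canonical correlation alignment, 1000 variable genes per genotype, 4 dimensions, resolution 0.4), without the subunit rows, and may differ from the study's. The cells excluded by the study could not be rebuilt. Unspliced copies were sought with BLAST 2.17.0 on NCBIM37 (at least 90% identity over 80% of the coding sequence). Rows named -ps were counted as copy rows as well. Python 3.11.15 with numpy 2.4.6, scipy 1.17.1 and pandas 2.3.3 was used. The intervals were run on simulated counts that varied by counting error alone. That run checks the computation and cannot show how the intervals do with differences between cells or animals.

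Genes named with values were, per complex, the 2 highest and 2 lowest between genotypes, the highest and lowest between TC-like and TPC-like cells, paralog families and the inhibitor, with at most 3 per related list; others named were chosen after their values were seen. The genes and lists were chosen with earlier results of these data known.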

Additional observations from a re-analysis of the deposited data

Results flagged for a closer look

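In 10 genes the ratio of Mkx-/- to WT was on opposite sides of 0 in TPC-like and TC-like cells beyond both counting intervals, where 19% of all tested genes did so. The difference itself was not tested, since each genotype is 1 sample. Sides are taken against 0, while the median ratio of all genes differed by cluster. It was 0.01 for the TPC-like cluster and 0.20 for the TC-like one. Whether the genes stay on opposite sides of those medians was not tested. The values below are the log2 ratio in TC-like cells minus that in TPC-like cells. In complex I it was -0.88 for Ndufc2 (0.55 in TPC-like, -0.33 in TC-like cells) and -0.93 for Ndufv3 (0.32 and -0.62), whereas it was 0.61 for Ndufa6, 0.61 for Ndufa2 and 0.60 for Ndufb8. In complex IV it was 0.48 for Cox7b (-0.22 and 0.26) and 0.19 for Cox4i1 (-0.13 and 0.06, both under those medians). Among the c ring genes of complex V it was 0.63 for Atp5g1 (-0.28 and 0.35) and -0.87 for Atp5g2 (0.39 and -0.49). With copy rows added it was 0.56 for Atp5g1, -0.37 for Atp5g2, which had 78.8% of its reads in copy rows, and 0.50 for Cox7b. For Atp5sl it was 5.14, from reads in 20 WT cells and 15 Mkx-/- cells.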

How the results depend on the processing

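No paired analysis was possible because the labels give no replicate numbers and each genotype is 1 sample. Rows and cells added or left out as copy rows, members without a copy, cells with markers of other types and the WT cell with the lowest share were alternatives chosen after seeing the data. Over all cells the summed ratio of Mkx-/- to WT (0.01) turned negative outside the 20 genes with the most reads (-0.063), relative to the median of all genes (-0.043), with equal weight per cell (-0.017), after thinning each cell to 28000 reads (-0.0084), with copy rows added (-0.0090) and without cells with other markers (-0.027). In TPC-like cells (0.01) it was -0.0307 with equal weight, -0.018 with subunit rows kept in the clustering, -0.0306 with 10 dimensions and -0.022 with copy rows. In cluster 3 (-0.05) it was -0.11 thinned, -0.074 without the cell with the most subunit reads in each genotype, 0.018 with subunit rows kept, 0.040 with 10 dimensions, -0.13 without cells with other markers and -0.078 without the WT cell. In TC-like cells (0.07) it was -0.13 outside the top genes, -0.13 relative to the median, 0.043 thinned, 0.037 with copy rows and 0.051 without cells with other markers. From TPC-like to TC-like cells, WT (-0.52) gave -0.017 outside the top genes, 0.15 relative to the median, -0.48 thinned and -0.48 with copy rows. Mkx-/- (-0.45) gave -0.15 outside the top genes, 0.0086 relative to the median, -0.43 with equal weight, subunit rows kept, copy rows or members without a copy, and -0.42 with 10 dimensions. The cause of these shifts was not tested. Past 0.32 on the log2 scale, in place of 1.5-fold, counts of higher and lower genes between genotypes were 4 and 7 over all cells (28.5% and 22.3% of all tested genes), 11 and 10 in TPC-like cells (31.9% and 30.6%), 9 and 20 in cluster 3 (35.6% and 35.9%) and 15 and 10 in TC-like cells (43% and 25.3%). Past 2-fold they were 0 and 0 (7.23% and 6.12%), 1 and 1 (12.7% and 11.5%), 1 and 4 (17% and 17.8%) and 1 and 2 (17.9% and 11%). From TPC-like to TC-like cells 47 (WT, 63.8% of all tested genes) and 48 (Mkx-/-, 56.2%) were lower at 0.32, and 14 (36.8%) and 7 (29%) at 2-fold. At 1.5-fold, 10 and 13 were lower outside the top genes, and 6 and 6 relative to the median. The share of all tested genes on those 2 scales is not given here. Depth limits genes with few reads, such as Ndufb6, Cox6c and Cox8b.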
